A study of Mus musculus with 2 samples.

Results

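The Wnt pathway genes described here are the Wnt ligands, their receptors, the secreted antagonists of both, and the genes that carry the signal from beta-catenin to the TCF/LEF factors. They were taken from the gene count table as the symbols Wnt, Fzd, Sfrp or Dkk followed by a number, plus 13 named genes: Lrp5, Lrp6, Ror2, Wif1, Axin1, Axin2, Ctnnb1, Nkd1, Nkd2, Lef1, Tcf7, Tcf7l1 and Tcf7l2. The table holds 50 such symbols among 46095 rows. A summed count of 10 or more across the 2 libraries was required for a comparison, which 32 of the 50 met, as did 17356 genes in all. RNA-seq was performed on 1 library of C3H10 cells transfected with an antisense oligonucleotide (ASO) against MALAT1 and 1 library of the same cells given a negative control (NC) ASO. C3H10 (C3H/10T1/2) is a mouse embryonic mesenchymal line that can form adipocytes, labelled as a fibroblast precursor with adipogenic ability. The labels give its strain as C57BL/6, although the line is known to come from C3H mice. Both cultures received 100 nM ASO at 70% confluence, were returned to full medium after 8 h and grown to confluence, and were then induced with IBMX (0.5 mM), dexamethasone (given as 5 mM), troglitazone (0.5 mg/L) and insulin (10 ng/mL) for 2 days before maintenance in insulin alone. Cells were collected at differentiation day 6. A single line is a limited model of fat cells, and which of the study's ASOs was sequenced is not given in the sources used here.

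Wnt proteins are secreted ligands that bind Frizzled (Fzd) receptors. With the co-receptors Lrp5 and Lrp6 they stop the axin scaffold from marking beta-catenin for destruction, so that beta-catenin enters the nucleus and switches on genes together with TCF/LEF factors, Axin2, Lef1, Tcf7 and Nkd1 being well-known targets among them. Other Wnts, Wnt5a above all, act largely without beta-catenin through receptors such as Ror2. Sfrp proteins and Wif1 bind the ligands, and Dkk1 blocks the Lrp co-receptors. In mesenchymal cells Wnt signalling through beta-catenin is known to hold back adipogenesis and to favour bone.

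Promoter sequence is shown for the 3 genes with the largest differences beyond counting error, Axin2, Lef1 and Wnt5b. The windows run from 250 bases before to 50 bases after a RefSeq transcript start on GRCm38.p6, and such windows were found for 35 of the 50 symbols. The site was searched as CTTTGAA or CTTTGAT on both strands; the strings differ only in the last base, so that 1 position on a strand can match just one of them, and matches are in capitals. Axin2 has 1 window, chr11:108920099-108920398 (plus strand). Lef1 has 4 starts, the first with the window chr3:131110047-131110346 (plus strand). Wnt5b has 3, with the first window at chr6:119544298-119544597 and the last at chr6:119449337-119449636 (minus strand).
Axin2: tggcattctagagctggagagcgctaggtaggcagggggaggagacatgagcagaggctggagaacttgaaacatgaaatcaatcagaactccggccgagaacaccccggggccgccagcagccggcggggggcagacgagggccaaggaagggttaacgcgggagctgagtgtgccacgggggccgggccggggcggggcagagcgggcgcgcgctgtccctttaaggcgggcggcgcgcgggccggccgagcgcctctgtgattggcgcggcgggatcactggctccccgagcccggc
Lef1, first start: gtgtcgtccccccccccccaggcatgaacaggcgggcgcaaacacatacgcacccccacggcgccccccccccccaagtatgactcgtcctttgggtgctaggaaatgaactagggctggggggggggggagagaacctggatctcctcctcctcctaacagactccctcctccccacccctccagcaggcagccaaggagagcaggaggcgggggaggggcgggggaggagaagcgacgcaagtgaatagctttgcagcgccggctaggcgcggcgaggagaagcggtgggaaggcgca
Wnt5b, first start: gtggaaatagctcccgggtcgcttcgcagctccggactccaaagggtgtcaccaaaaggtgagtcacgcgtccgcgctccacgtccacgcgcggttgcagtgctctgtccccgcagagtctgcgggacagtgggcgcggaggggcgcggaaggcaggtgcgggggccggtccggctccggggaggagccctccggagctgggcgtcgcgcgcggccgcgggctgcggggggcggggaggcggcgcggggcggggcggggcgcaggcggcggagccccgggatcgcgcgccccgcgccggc
Wnt5b, last start: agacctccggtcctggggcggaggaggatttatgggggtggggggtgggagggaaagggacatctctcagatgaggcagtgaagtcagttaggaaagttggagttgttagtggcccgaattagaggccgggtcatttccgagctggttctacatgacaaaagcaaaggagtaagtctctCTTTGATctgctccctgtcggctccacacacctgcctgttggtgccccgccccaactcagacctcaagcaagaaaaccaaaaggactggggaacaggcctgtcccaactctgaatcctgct
The Axin2 window and all 4 Lef1 windows held 0 matches. The last Wnt5b window held 1 match, at -71 to -65 from its start. Of 32851 RefSeq windows of this length, 8.65% held either string, against 2 of the 32 windows that belong to compared genes, the other being one of Wnt11. A match is only a string of letters, and these windows do not cover introns or distant enhancers. In base composition, 70.0% of the Axin2 window and 67.3% of the first Lef1 window were G or C, as were 78% and 55% of the first and last Wnt5b windows.

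The control library held 58147539 counts and the MALAT1-knockdown library 61653549. Malat1, the target, had 170402 counts in control and 45396 in MALAT1-knockdown cells, which left 24.7% of the control level. Library sizes carry TMM factors from edgeR, and CPM denotes counts scaled to that size. A log2 ratio, the log2 fold change, is knockdown over control with a prior count of 0.5, and its 95% Clopper-Pearson interval covers counting error only. The test was a two-sided exact binomial test per gene, with p-values adjusted by Benjamini and Hochberg's method across all 17356 genes. With 1 library per group no difference has a replicate check, and a p-value speaks of the 2 libraries rather than of the treatment. Genes with a mean of 100 to 1000 counts differed by a median of 0.22 on the log2 scale in either direction, and their median squared deviation was 9.50 times that of counting error alone. Small adjusted p-values were therefore common: 8346 genes, or 48.1%, had one under 0.05, as did 15 of the 32.

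Most Wnt pathway genes differed little between the libraries, and those that stood out did so in both directions. Axin2 and Lef1 were lower in MALAT1-knockdown cells, while the ligand Wnt5b and the antagonist-family gene Dkk3 were higher. Past 2-fold with an adjusted p under 0.05, 1 of the 32 genes was lower (Axin2), against 4.09% of all genes tested, and 0 were higher, against 2.19%. Past 1.5-fold with an adjusted p under 0.05, 2 were lower (Axin2 and Lef1), against 7.26% of all genes, and 2 were higher (Wnt5b and Dkk3), against 4.37%. These shares are near the background in both directions. The median log2 ratio was 0.04 over the 32 genes and -0.00 over all genes tested, and 26 of the 32 lay within 1.5-fold. All 4 genes past 1.5-fold had a mean of 100 to 1000 counts, where 11 of the 32 genes lay and where 4.81% of all genes were past that line upward and 8.15% downward. With the edgeR exact test at a fixed coefficient of biological variation of 0.1, the adjusted p was 0.00486 for Axin2, 0.00289 for Lef1 and 0.00244 for Wnt5b, but 0.203 for Dkk3. With a preset of 0.2 it was 0.409 for Axin2, 0.617 for Lef1 and 0.495 for Wnt5b, and 0 of the 32 genes passed.

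**Figure D1:**
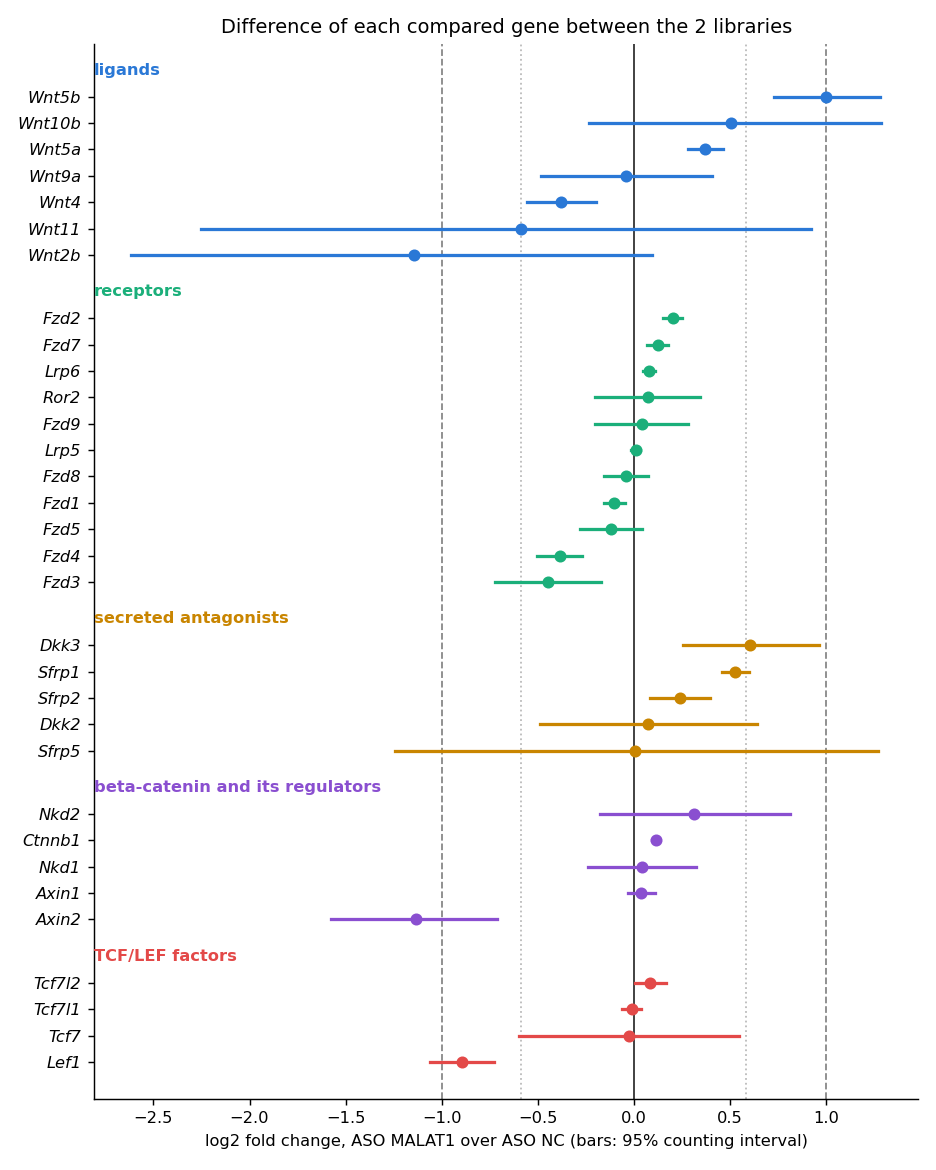
Log2 ratio of the 32 compared genes, MALAT1-knockdown over control, 1 library each, grouped by role; bars are 95% counting intervals, dashed lines mark 2-fold and dotted lines 1.5-fold. Axin2 lies past -1, Lef1 at -0.89 and Wnt5b at 1.0, while the receptors cluster about 0.

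**Figure D2:**
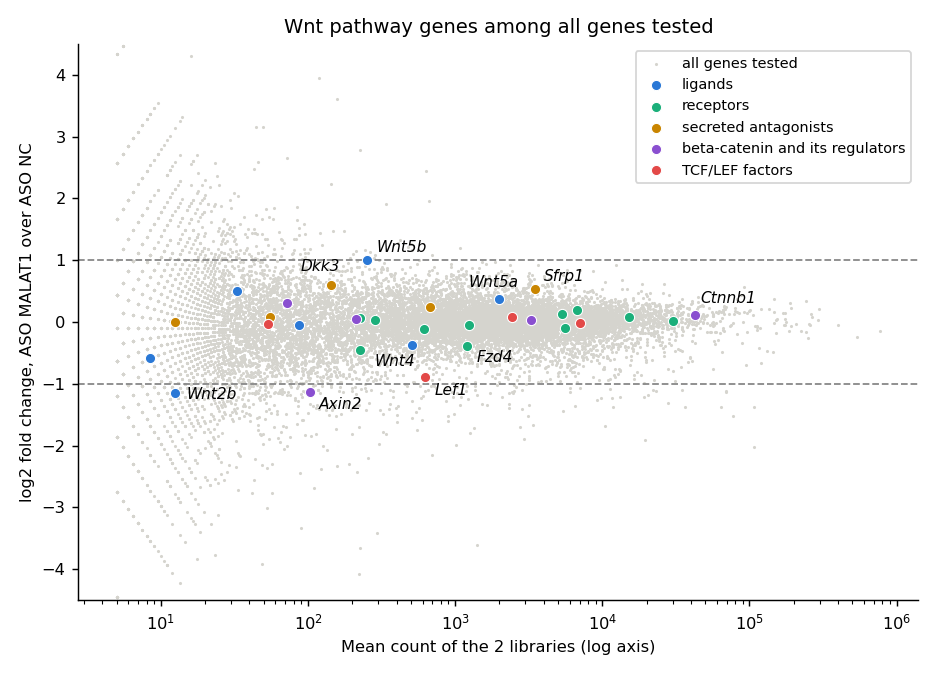
Log2 ratio against the mean count of both libraries (log axis) for all 17356 genes tested in grey and the 32 Wnt pathway genes in colour by role, with 10 of them named; 36 genes beyond 4.5 in either direction are not drawn. The Wnt pathway genes lie within the cloud of other genes, with Axin2, Lef1 and Wnt5b farther from 0 than most genes of 100 to 1000 mean counts.

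Among the ligands, which start the signal, only 7 of 19 Wnt genes were compared, and Wnt5a, Wnt4 and Wnt5b held most of the Wnt counts. Wnt5a, the best-known ligand of the beta-catenin-independent branch, had 1659 counts in control and 2312 in MALAT1-knockdown cells. Its log2 ratio was 0.37 (95% interval 0.28 to 0.46), higher but under 1.5-fold. Wnt5b, its closest relative, had 160 counts in control and 345 in knockdown cells. That is a log2 ratio of 1.0 (95% interval 0.73 to 1.28, adjusted p = 6.95e-13 by the exact binomial test), at the 2-fold line and just short of it. The gene spans bases 119432531 to 119544347 of chromosome 6 (minus strand). Wnt5b passed that line under 3 other library scalings and a prior count of 0.1. Wnt4, a ligand reported in both branches, went the other way, with 560 counts in control and 464 in knockdown cells, a log2 ratio of -0.38 (95% interval -0.56 to -0.20). Neither Wnt5a nor Wnt4 had an adjusted p under 0.05 in the edgeR exact test at a coefficient of biological variation of 0.1. Together Wnt5a and Wnt5b had 1819 counts in control and 2657 in knockdown cells, while all other Wnts together had 700 and 617.

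Divided by exon length, which allows levels of different genes to be set side by side, the order of these ligands differed between the libraries. Levels in CPM per kilobase of merged exons were 3.68 in control and 4.76 in knockdown cells for Wnt5a. They were 2.31 and 1.78 for Wnt4, against 1.04 and 2.09 for Wnt5b. Wnt4 was thus above Wnt5b in control cells and below it in knockdown cells, also with the longest transcript as the length. As a share of all Wnt counts, Wnt5b made up 6.35% in control cells (95% Wilson interval 5.46 to 7.37) and 10.5% in knockdown cells (9.53 to 11.6). The share of Wnt4 was 22.2% (20.7 to 23.9) in control and 14.2% (13 to 15.4) in knockdown cells. These intervals cover counting error only, which is smaller than the deviations seen between the libraries at such counts.

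The remaining ligands were scarce. Wnt9a had 85 counts in control and 89 in knockdown cells. Wnt10b, a ligand known to restrain adipogenesis through beta-catenin, had 26 and 40 counts, with a 95% interval of the log2 ratio from -0.23 to 1.29. Wnt2b had 17 and 8 counts, and its log2 ratio of -1.14 had an interval from -2.61 to 0.10. The gene just inside the count minimum was Wnt11, with 10 and 7 counts, and the gene just outside it was Wnt6, with 1 and 3. Wnt2, Wnt3a, Wnt7b and Wnt8b had 3 counts or fewer in each library. No count was found in either library for Wnt1, Wnt3, Wnt7a, Wnt8a, Wnt9b, Wnt10a or Wnt16. A count of 0 allows up to 3 counts, or 0.0520 CPM in control and 0.0483 CPM in knockdown cells. Genes with a summed count under 10 were given no fold change.

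**Figure D3:**
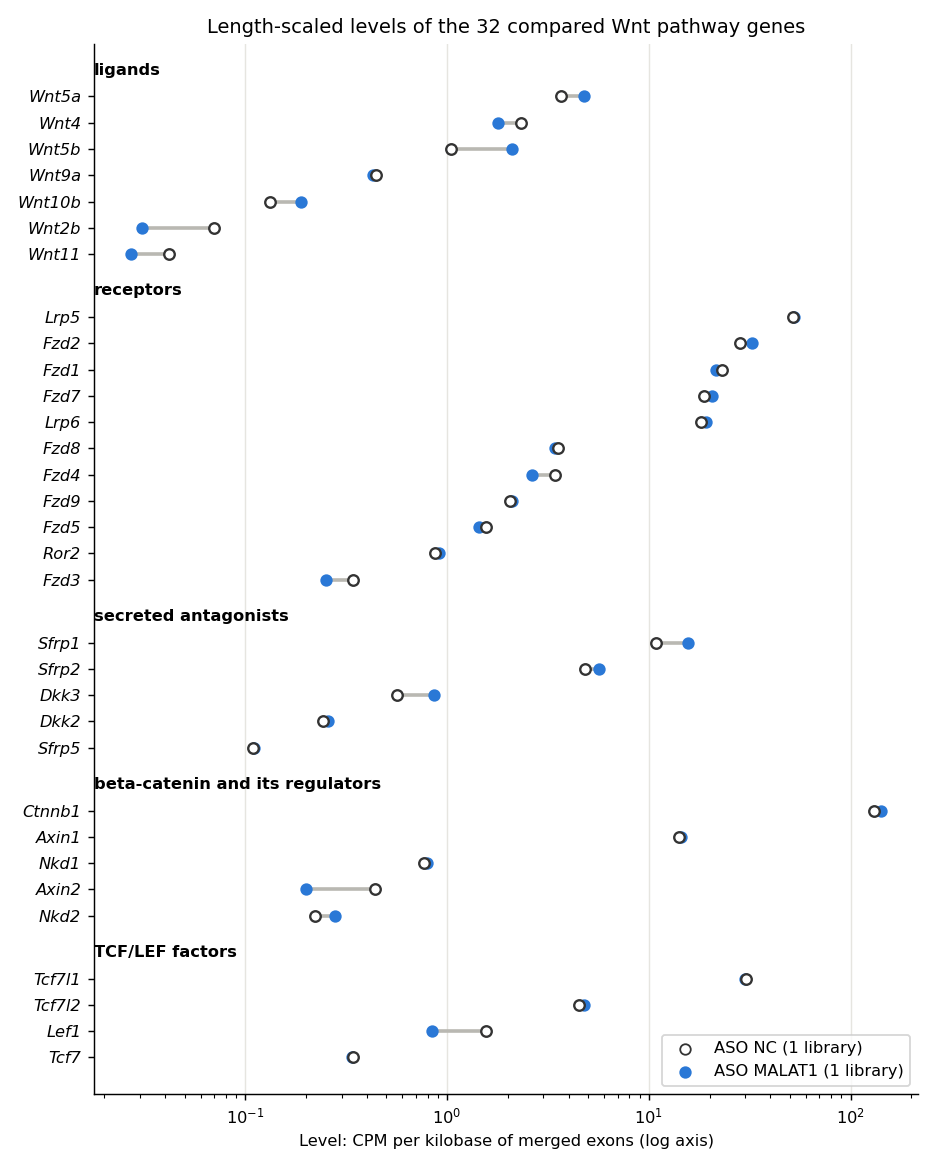
Level of each compared gene in CPM per kilobase of merged exons (log axis) in the control library (open circles) and the MALAT1-knockdown library (filled circles), grouped by role and ordered by the control level. Beta-catenin (Ctnnb1), Lrp5, Tcf7l1 and Fzd2 lead in both libraries, and Wnt5b and Wnt4 change places among the ligands.

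All 11 receptors compared lay within 1.5-fold, with a median log2 ratio of 0.01. Few genes of any kind were past that line with an adjusted p under 0.05, namely 4.37% of all genes upward and 7.26% downward. Above a mean of 1000 counts these shares were 1.43% and 2.84%, so the receptors were near the background. The co-receptor Lrp5 had 29170 counts in control and 31639 in knockdown cells, a log2 ratio of 0.01 (95% interval -0.01 to 0.03). Its partner Lrp6 had 14257 and 16217 counts, with a log2 ratio of 0.08 (95% interval 0.05 to 0.11). Fzd2, Fzd1 and Fzd7 were the leading Frizzled genes per exon length. Fzd2 had 5970 counts in control and 7391 in knockdown cells, a log2 ratio of 0.20 (95% interval 0.15 to 0.25). Its level was 28.2 CPM per kilobase in control and 32.5 in knockdown cells. Fzd1 stood at 23.0 and 21.4 and Fzd7 at 18.7 and 20.4 CPM per kilobase. Fzd2 alone held 29.7% of all Frizzled counts in control and 33.3% in knockdown cells.

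Fzd4 and Fzd3 were the receptors with the lowest log2 ratios. Fzd4, which also serves as the receptor of the non-Wnt ligand norrin, had 1328 counts in control and 1095 in knockdown cells, a log2 ratio of -0.38 (95% interval -0.50 to -0.27). For Fzd3, known from axon guidance and planar polarity, the counts were 253 and 200 and the log2 ratio -0.44 (95% interval -0.72 to -0.17). Both intervals excluded 0, but they cover counting error only, and neither gene reached 1.5-fold. Neither had an adjusted p under 0.05 in the edgeR exact test at a coefficient of biological variation of 0.1. Fzd8 (1217 and 1274 counts), Fzd5 (620 and 615) and Fzd9 (270 and 299) had intervals that included 0. So did Ror2, the receptor tyrosine kinase that binds Wnt5a, with 213 counts in control and 241 in knockdown cells. Fzd6 and Fzd10 had 0 counts in both libraries.

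All 5 secreted antagonists compared had positive log2 ratios, as did 8612 of all 17356 genes tested. Their median was 0.24, or 0.07 with a minimum of 1 summed count, and 1 of them, Dkk3, was past 1.5-fold with an adjusted p under 0.05. Sfrp1, which binds Wnts through a Frizzled-like domain, was the most abundant, with 2741 counts in control and 4255 in MALAT1-knockdown cells. Its log2 ratio was 0.53 (95% interval 0.46 to 0.60, adjusted p = 5.1e-50 by the exact binomial test), or 1.44-fold, just under the 1.5-fold line. In length-scaled terms Sfrp1 stood at 10.9 CPM per kilobase in control and 15.7 in knockdown cells. Sfrp2, a second ligand-binding antagonist, had 597 and 759 counts, a log2 ratio of 0.24 (95% interval 0.08 to 0.40). At a coefficient of biological variation of 0.1 the adjusted p of the edgeR exact test was 0.121 for Sfrp1 and 0.772 for Sfrp2. Dkk3, a divergent member of the Dkk family that is not a typical Lrp blocker, had 109 counts in control and 179 in knockdown cells. Its log2 ratio was 0.61 (95% interval 0.26 to 0.97, adjusted p = 0.00164 by the exact binomial test), and with counts divided by 4 its adjusted p was 0.281. Dkk2 (52 and 59 counts) and Sfrp5 (12 and 13) had intervals that reached well to both sides of 0. Wif1 and Sfrp4 had 2 counts or fewer in each library, and Dkk1 and Dkk4 had 0. Antagonists outside the symbol rule did not share 1 direction. Of the 7 other antagonists and cofactors compared, described further below, 3 had positive and 4 negative log2 ratios.

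Inside the cell, Ctnnb1 and Axin1, the signal carrier and its main scaffold, hardly differed, while the feedback gene Axin2 was lower. Ctnnb1, which encodes beta-catenin, had 39164 counts in control and 45599 in knockdown cells, a log2 ratio of 0.11 (95% interval 0.09 to 0.13). Axin1, with 3100 and 3430 counts, had a log2 ratio of 0.04 (95% interval -0.03 to 0.11). Axin2, the second axin, which beta-catenin itself switches on, had 139 counts in control and 68 in knockdown cells. Its log2 ratio of -1.13 (95% interval -1.58 to -0.71, adjusted p = 2.82e-07 by the exact binomial test) left 45.6% of the control level. Axin2 thus made up 4.29% of all axin counts in control cells (95% Wilson interval 3.65 to 5.05) and 1.94% in knockdown cells (1.54 to 2.46). The Axin2 gene lies on chromosome 11 from 108920349 to 108950783 (plus strand, GENCODE M21 on GRCm38). Nkd1, another feedback inhibitor, which binds Dishevelled, had 202 counts in control and 224 in knockdown cells. Its log2 ratio was 0.04, and the 95% interval ran from -0.24 to 0.32. Its relative Nkd2 had 62 and 83 counts and an interval from -0.18 to 0.81.

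Of the 4 TCF/LEF factors, which carry beta-catenin to DNA, only Lef1 was past 1.5-fold. Lef1 had 794 counts in control and 460 in MALAT1-knockdown cells. Its log2 ratio of -0.89 (95% interval -1.06 to -0.73, adjusted p = 7.64e-26 by the exact binomial test) left 53.8% of the control level. Tcf7l1, mostly known as a repressor of the pathway's targets, was the most abundant factor per exon length, at 30.2 CPM per kilobase in control and 29.9 in knockdown cells. Its counts were 6828 and 7291, a log2 ratio of -0.01 (95% interval -0.06 to 0.04). Tcf7l2, the second most abundant, had 2287 and 2612 counts and a log2 ratio of 0.09 (95% interval 0.00 to 0.17). Tcf7, a target gene like Lef1, had only 52 and 55 counts, so that a difference of up to about 1.5-fold in either direction was not detectable at this depth (95% interval -0.60 to 0.55). Lef1 spans bases 131110471 to 131224356 of chromosome 3 (plus strand), and 1208 of its 8788 exon bases overlap an antisense gene, Gm43352. For Axin2 the overlap is 209 of 5506 bases with the antisense gene Gm11670. Strand was kept in the libraries, but its use in counting is not given in the sources used here, so reads of such partners cannot be told apart.

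Other genes of the pathway, from lists written by hand, mostly lay near 0 as well. Of 9 genes for secretion and release of Wnts, 0 were past 1.5-fold with an adjusted p under 0.05, and the median log2 ratio was 0.06. Wls, the carrier that brings Wnts to the cell surface, had 16878 counts in control and 18988 in knockdown cells. Of 21 genes for the destruction complex and Dishevelled, 1 was past 1.5-fold, Dvl2, which was lower with 264 and 135 counts, and the median was -0.03. Dvl2 lies among genes with few counts, as 10 of its 10 listed neighbours had under 1000 counts over both libraries. The 22 nuclear cofactors of beta-catenin had a median of 0.02 and 0 genes past 1.5-fold. Among 24 genes of the non-canonical branch and planar polarity the median was 0.08, and 1 was past 1.5-fold, the polarity gene Prickle1, lower with 240 and 153 counts.

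R-spondins raise the number of Frizzled and Lrp receptors on the cell surface. The R-spondin axis list also holds Lgr receptors, and Znrf3 and Rnf43, which do not share that role. Its median log2 ratio was 0.39 over the 5 of 9 genes compared. That median was 0.26 with a minimum of 1 summed count and 0.32 with 10 counts in each library. Among the 5 were Rspo1, with only 5 and 12 counts, and Znrf3, with a log2 ratio of 0.03. The receptor Lgr4 had 3571 counts in control and 5037 in knockdown cells, and the ligand Rspo3 344 and 485, but 0 of the 5 were past 1.5-fold with an adjusted p under 0.05. Among 7 of 12 other antagonists and cofactors compared, 3 were past 1.5-fold and all were lower. They were Apcdd1, an inhibitor at the receptor that is itself a target gene, with 2041 and 1265 counts, Igfbp4, a binding protein for insulin-like growth factors that also blocks Wnt receptors, with 7879 and 5356, and Sostdc1, an Lrp-binding antagonist, with 39 and 14. Over all genes, 7.26% were past that line downward and 4.37% upward. The list's median log2 ratio was -0.09, and -0.38 under either other count minimum.

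Of 29 target genes of beta-catenin outside the 32, 21 were compared, with a median log2 ratio of 0.06. The log2 ratio was positive for 15 and negative for 6, against 8612 and 8744 of all 17356 genes tested. At any fold, 7 were higher and 3 lower with an adjusted p under 0.05, against 4207 and 4139 of all genes. Past 1.5-fold, 2 were higher and 2 lower, against 4.37% and 7.26% of all genes. The higher genes were Ccnd1, which encodes cyclin D1, with 14129 counts in control and 23271 in knockdown cells, and Birc5, which encodes survivin, with 1757 and 3078. Both are cell cycle genes that many other signals control. The lower genes were Apcdd1 and Ppard, a fatty acid-sensing nuclear receptor, which had 118 counts in control and 52 in knockdown cells and 9 of 10 listed neighbours with under 1000 counts. Znrf3, a feedback gene of the pathway, had 542 and 596 counts and an interval of the log2 ratio from -0.14 to 0.20. Lgr5, Rnf43 and Sp5, which mark strong beta-catenin signalling in other tissues, had 1 count or fewer in each library. Rnf43 also lies among genes with few counts, as 8 of its 8 listed neighbours had under 1000 counts. The other targets with an adjusted p under 0.05 were under 1.5-fold. Sox9, Id2, Fosl1, Cd44 and Wisp1 had log2 ratios of 0.51, 0.50, 0.36, 0.34 and 0.31, and Myc had -0.35.

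Markers of the cell types that such a culture can hold also differed. All 25 of 26 mature adipocyte markers compared had negative log2 ratios, with a median of -1.26, and 20 were past 2-fold with an adjusted p under 0.05. Their summed level was 14596 CPM in control and 6282 CPM in knockdown cells. Fabp4 was the most abundant, with 151625 and 63240 counts, while Lep, which encodes leptin, had 1 count in control and 0 in knockdown cells. For 20 of 22 fibroblast and preadipocyte markers compared the median was 0.16, and 1 was past 1.5-fold upward and 2 downward. Their summed level was 23289 CPM in control and 25739 CPM in knockdown cells, and the preadipocyte marker Dlk1 was at 0 in both. In bulk RNA fewer adipocytes and less adipocyte RNA per cell cannot be told apart. The part of these marker differences in those of Axin2, Lef1, Wnt5b and Sfrp1 was not tested.

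**Figure D4:**
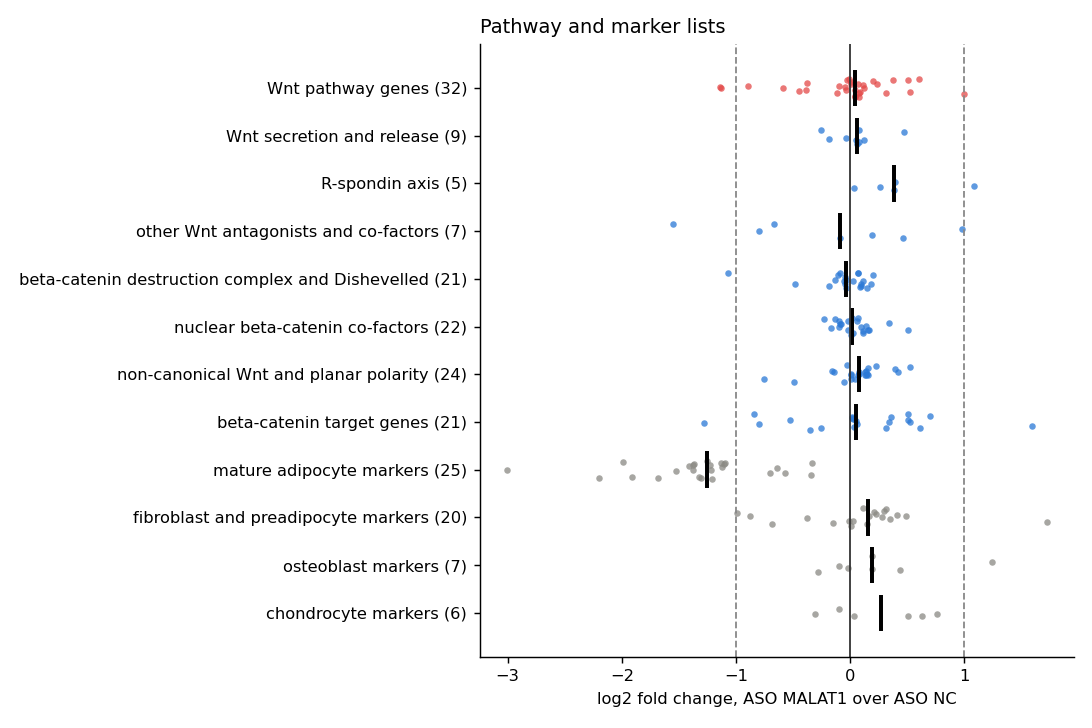
Log2 ratio of each compared gene, MALAT1-knockdown over control, in the Wnt pathway genes (red), 7 other pathway lists (blue) and 4 marker lists (grey); black bars are medians, numbers in brackets are genes compared and dashed lines mark 2-fold. Medians of the pathway lists lie between -0.09 and 0.39, and that of the mature adipocyte markers at -1.26.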

How the data were processed

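The deposited counts are whole numbers of reads per gene symbol without normalization, made by the authors from total RNA after rRNA depletion with a strand-keeping kit. The submitters' processing notes name HISAT2 and GRCm38. The counting tool, the annotation, the strand setting and the handling of multi-mapped and duplicate reads are not given in the sources used here. Columns were matched to samples by their titles, and 0 columns were left unused.

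A gene needed a summed count of 10 or more to be compared. Library sizes were scaled by TMM (edgeR 4.0.16, R 4.3.3). The factors were 0.992 for the control and 1.01 for the knockdown library. Because edgeR's quasi-likelihood test needs replicates, a two-sided exact binomial test (the smaller tail doubled) was used with Benjamini-Hochberg adjustment (scipy 1.17.1, Python 3.11.15). Prior counts were scaled to library size. Exon lengths, positions and neighbours (5 protein-coding genes on each side) came from GENCODE M21 on GRCm38, which may not be the authors' annotation; promoter sequences came from RefSeq on GRCm38.p6. The test was checked on simulated counts that held counting error only. That check does not cover the larger deviations seen between these 2 libraries. Reads without molecular identifiers are not independent molecules, so intervals and floors cover counting error only.

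The genes, roles, gene lists and tests were chosen with earlier results of these data known. Full values are given for genes past 1.5-fold with an adjusted p under 0.05, for the 3 with the most counts in each role, and for others where a sentence names them, the latter chosen after their values were seen. Of each pathway list, the genes past that line are named, and others only as examples. Alternatives were library totals, DESeq2 size factors (DESeq2 1.42.0), upper-quartile factors, other count minimums and prior counts, the edgeR exact test at fixed coefficients of biological variation, and counts divided by 4. The longest transcript as the length was added after the data were seen.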

Additional observations from a re-analysis of the deposited data

How the results depend on the processing

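With 1 library per group there was no replicate to leave out. No paired analysis was possible because the groups share no second replicate. Across 11 alternatives, 0 of the Wnt pathway genes past 1.5-fold (Axin2, Lef1, Wnt5b and Dkk3) changed sign. Of 327 log2 ratios and medians compared with the main setting, 5 changed sign, namely those given below. The edgeR exact test and the divided counts altered p-values only, and their log2 ratios repeat the main values. A change of sign was therefore possible only under the other scalings, count minimums and prior counts. Other scalings moved the median of all genes by at most 0.0221. The log2 ratio of Dkk3, 0.61, was the nearest to 0 of Axin2, Lef1, Wnt5b and Dkk3. A change of sign was thus hardly possible for these genes, and its absence is no check of them.

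The count of Wnt pathway genes higher past 2-fold was 1 (Wnt5b) in place of 0 with library totals, DESeq2 size factors, upper-quartile factors or a prior count of 0.1. The count lower past 2-fold was 0 in place of 1 with edgeR's exact test at a coefficient of variation of 0.2 or 0.4. Past 1.5-fold, the higher count of 2 became 1 at 0.1 and with counts divided by 4, where Dkk3 was lost, and 0 at 0.2 and 0.4, where the lower count was also 0. The variation between cultures was not measured.

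For all genes, counts higher and lower past 2-fold were 380 and 710. Requiring 10 counts per library gave 166 and 395, which tests fewer genes. With edgeR's exact test they were 201 and 466 at 0.1, 22 and 95 at 0.2, and 1 and 0 at 0.4, and with counts divided by 4 they were 45 and 210. Past 1.5-fold, 759 and 1260 became 371 and 708 at 0.1, 22 and 95 at 0.2, 1 and 0 at 0.4, and 263 and 485 with counts divided by 4. The median log2 ratio of the ligands turned from -0.04 to 0.44 with a minimum of 1 summed count and to 0.37 with 10 counts in each library. With library totals the median of the TCF/LEF factors turned from -0.02 to 0.0033 and the log2 ratio of Tcf7l1 from -0.01 to 0.01. With a minimum of 1 summed count the median of the osteoblast markers turned from 0.19 to -0.02, that of the secreted antagonists went from 0.24 to 0.07 and that of the chondrocyte markers from 0.27 to 0.51, and that of the other antagonists went from -0.09 to -0.38 under either count filter. The cause was not tested. With the longest transcript as the length, Lrp6 passed Fzd1 and Fzd7 among the receptors, and the order of the ligands and of the TCF/LEF factors was the same.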

Other observations

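Bone and cartilage are other fates of such mesenchymal cells. Of 10 osteoblast markers, 7 were compared and had a median log2 ratio of 0.19, which was -0.02 with a minimum of 1 summed count and 0.08 with 10 counts in each library. Of the 7, 4 were positive and 3 negative, with 0 past 1.5-fold with an adjusted p under 0.05. Spp1, which encodes the matrix protein osteopontin, had 71895 counts in control and 104528 in MALAT1-knockdown cells, a log2 ratio of 0.43. Runx2, the leading transcription factor of osteoblasts, had 1909 and 2354 counts. Phex, an endopeptidase of bone cells, went the other way with 2180 and 1935 counts, a log2 ratio of -0.28 (95% interval -0.37 to -0.19), while Dlx5 and Dmp1 had log2 ratios of -0.10 and -0.02. Sp7, which acts after Runx2, had 2 and 1 counts, and the osteocalcin genes Bglap and Bglap2 had 3 counts or fewer in each library.

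Of 9 chondrocyte markers, 6 were compared, with a median of 0.27 (0.51 with a minimum of 1 summed count) and 1 past 1.5-fold, Col2a1, the main collagen of cartilage. Col2a1 had 378 counts in control and 692 in knockdown cells, a log2 ratio of 0.77 (95% interval 0.58 to 0.95). Sox9, the transcription factor that drives cartilage genes and also binds beta-catenin, had 6570 and 10050 counts, a log2 ratio of 0.51. Col9a1, another cartilage collagen, had 193 and 168 counts and a log2 ratio of -0.31 (95% interval -0.61 to -0.00081), and Comp, a cartilage matrix protein, had -0.09. Acan, which encodes the cartilage proteoglycan aggrecan, was at 0 in both libraries. Both lists come from general knowledge, and with 1 library per group none of the differences has a replicate check.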
